A study of Mus musculus with 3 samples.

Results

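The mouse liver genes described here, 8 in all, store, carry, make, sense or break down vitamin A (retinoids): Cyp26b1, Cyp26a1, Rbp4, Lrat, Rdh10, Dhrs3, Aldh1a1 and Rarb, 8 of the 55421 gene identifiers counted. Their levels are given across the cell classes of the liver. They were chosen by their levels per class and library in these same data, Cyp26b1 because it was lower in endothelial cells after a high-iron diet, so the levels below describe the choice and do not test it. Expression was measured by droplet single-cell RNA sequencing in the livers of 3 wild-type mice, 1 mouse and 1 library per group, and all 3 mice ate an iron-deficient diet with 2 to 6 ppm iron for 1 week. The IDD+HID mouse then ate food containing 2% carbonyl iron over 18 h, the IDD+HTF mouse received 10 mg of holo-transferrin, the iron-loaded plasma iron carrier, into the tail vein, and the IDD mouse was the control on the deficient diet alone. The time between injection and collection, and the age, strain and sex of the mice, are not stated in the labels. The cell suspension was a mixture of 5% of the hepatocyte fraction and 95% of the fraction with the other cells, so class shares are not those of the liver.

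Retinoids reach the liver mostly from the diet. Hepatocytes take them up and release retinol bound to the carrier RBP4, and hepatic stellate cells store most of the body's vitamin A as retinyl esters, which the enzyme LRAT makes from retinol. Retinol is oxidised to retinal (RDH10, reversed by DHRS3) and on to retinoic acid by the ALDH1A enzymes. Retinoic acid acts through nuclear receptors such as RARβ and is broken down by the CYP26 enzymes.

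The 3 libraries held 75404660 (IDD+HID), 55478904 (IDD+HTF) and 34552858 (IDD) counts of unique molecular identifiers (UMIs), and 3538 cells in IDD+HID, 3203 in IDD+HTF and 1311 in IDD passed the limits on depth, genes and mitochondrial RNA. Cell classes were named from markers alone and carry the ending "-like". The sinusoidal endothelial-like class, the cells that line the liver's capillaries, had 1148 cells in IDD+HID, 781 in IDD+HTF and 337 in IDD, with median depths of 9895.5 UMIs in IDD+HID, 6168 in IDD+HTF and 3399 in IDD. The stellate-like class (cluster 9) had 117 cells in IDD+HID, 146 in IDD+HTF and 136 in IDD, and the hepatocyte-like class 261 in IDD+HID, 1032 in IDD+HTF and 246 in IDD. Every defining marker of these 3 classes was detected in its class in every library. Each pair of libraries shared 1 cell barcode. With 1 mouse per group no test across mice was possible, so no p-value is given, and every interval in this text is a 95% interval for counting error only. Levels are UMIs of the gene per 1000000 UMIs of the class (CPM), which do not tell fewer positive cells from less RNA per cell, and as 3′ counts they are not compared between genes. Where 2 libraries are compared, genes with 50 or more UMIs in both together are called measured, and those whose CPM differ by at least 1.5-fold are called higher or lower, which is a rule of size and not a test.

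Cyp26a1, Cyp26b1 and Rarb are commonly read as genes that respond to retinoic acid, so the 250 bases before their RefSeq starts (build GRCm38.p6) are shown first, to set beside the levels. Capitals mark a direct repeat of 2 of the half-sites AGGTCA or AGTTCA or GGGTCA or GGTTCA spaced by 5 bases, the arrangement bound by retinoic acid receptors. Both strands were searched, and each sequence is written in the direction of its gene.
Cyp26b1, chr6:84593811-84594060, minus strand: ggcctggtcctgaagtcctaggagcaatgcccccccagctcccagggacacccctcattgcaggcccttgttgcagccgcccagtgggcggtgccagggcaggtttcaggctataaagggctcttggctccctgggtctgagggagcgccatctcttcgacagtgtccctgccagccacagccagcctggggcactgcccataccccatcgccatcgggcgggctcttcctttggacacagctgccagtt
Cyp26a1, chr19:37697558-37697807, plus strand: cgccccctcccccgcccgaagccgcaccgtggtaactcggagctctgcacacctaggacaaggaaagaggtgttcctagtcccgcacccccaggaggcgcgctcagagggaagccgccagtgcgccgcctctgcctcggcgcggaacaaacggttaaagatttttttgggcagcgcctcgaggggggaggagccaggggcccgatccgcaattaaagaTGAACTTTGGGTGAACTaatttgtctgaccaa
Rarb, chr14:16575477-16575726, minus strand: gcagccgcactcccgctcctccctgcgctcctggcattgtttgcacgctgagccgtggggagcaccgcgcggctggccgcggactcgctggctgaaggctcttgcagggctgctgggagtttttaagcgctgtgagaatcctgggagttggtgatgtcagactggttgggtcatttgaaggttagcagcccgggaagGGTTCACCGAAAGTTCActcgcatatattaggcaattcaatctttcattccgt
The window of Cyp26a1 held the repeat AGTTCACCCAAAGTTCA on the strand opposite to the gene, ending 15 bases before the start. The window of Rarb held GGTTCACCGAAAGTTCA on the strand of the gene, 36 bases before the start. Neither this repeat nor the same half-sites spaced by 2 bases was found in the window of Cyp26b1 or in the other member windows. In all, 7 members matched the RefSeq promoter table, with 11 windows, and 2 of the 7 held a repeat. Of all 32851 promoter windows of the same length, 0.0883% held a repeat with 5 bases between and 0.174% one with 2. Counted by gene, the shares were 0.1036% and 0.2035% of 27025 genes. The members were not drawn without regard to retinoids, so nothing is read from the contrast. A match is a run of letters and does not show binding. The Rarb window lies inside the annotated gene (16430839 to 16819156), so it precedes an internal start. The windows of Cyp26b1 and Cyp26a1 overlap the first bases of the annotated genes. The 3′ counts do not tell which start is used.

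Cyp26b1 (ENSMUSG00000063415.12, chromosome 6, 84571414 to 84593908 on the minus strand of GRCm38), the enzyme that oxidises retinoic acid to products that are cleared, was an endothelial transcript in these libraries. In sinusoidal endothelial-like cells it stood at 157 CPM in IDD+HID (149 to 164, 1765 UMIs), at 971 CPM in IDD+HTF (945 to 998, 5219 UMIs), against 645 CPM in IDD (602 to 690, 830 UMIs). The IDD+HID library was the low one and the IDD+HTF library the high one, and none of the 3 intervals overlapped another. The IDD+HID level was 4.12-fold lower than IDD (3.79 to 4.47) and 6.20-fold lower than IDD+HTF (5.87 to 6.55), and the IDD+HTF level was 1.51-fold higher than IDD (1.40 to 1.62). IDD+HID and IDD+HTF are set against the same IDD library in these ratios.

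Of the 6 members measured in this class, Cyp26b1 was the only one at least 1.5-fold apart in either comparison with IDD. In IDD+HID over IDD 0 members were higher and 1 lower, against 14.0% of all measured genes higher and 19.8% lower. In IDD+HTF over IDD 1 was higher and 0 lower, against 9.73% and 10.0% of all genes. In IDD+HID over IDD+HTF 0 were higher and 2, Cyp26b1 and Lrat, were lower, against 4.94% and 11.8%. Because the rule used these contrasts, nothing is read from these counts. The class's own 8 markers summed to 22050 CPM in IDD+HID, 19810 in IDD+HTF and 16170 in IDD, and none was 1.5-fold lower in IDD+HID than in IDD, their log2 ratios lying between -0.17 and 0.73.

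**Figure D1:**
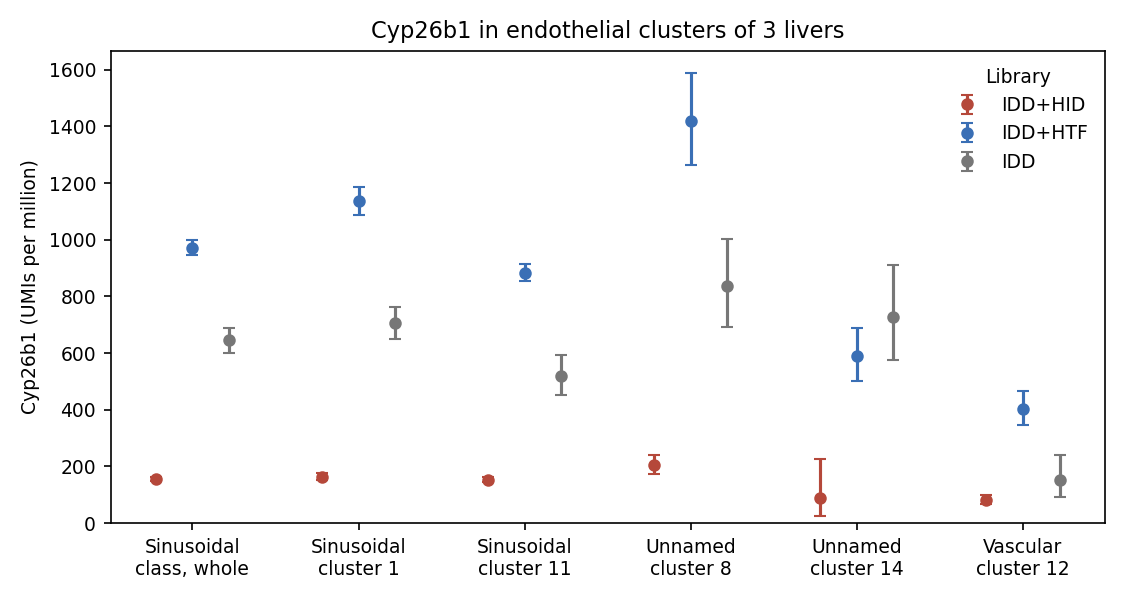
Points give the Cyp26b1 level on the vertical axis (CPM, on a linear scale from 0, with 95% counting intervals) in the whole sinusoidal endothelial-like class and in clusters 1, 11, 8, 14 and 12, coloured by library, 1 mouse each. IDD+HID has the lowest point in every group of cells, at 157 CPM in the whole class, and IDD+HTF the highest in every group but cluster 14, at 971 CPM in the whole class, where IDD lies between them at 645 CPM.

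The class was made of clusters 1 and 11, which the libraries filled unequally. Cluster 1 held 41.7% of the class in IDD+HID, 41.1% in IDD+HTF and 72.7% in IDD. Cluster 11 was led by the stress and immune genes Cxcl10, Apold1, Iigp1, Adamts1, Socs3 and Mt2. The order of the libraries was the same within each of these clusters. In cluster 1 Cyp26b1 stood at 164 CPM in IDD+HID (151 to 178), 1136 CPM in IDD+HTF (1088 to 1186), against 705 CPM in IDD (650 to 764). In cluster 11 it stood at 153 CPM in IDD+HID (145 to 162), 884 CPM in IDD+HTF (853 to 916), against 520 CPM in IDD (454 to 594). The endothelial cluster 8, left unnamed and with vascular endothelial markers as its leading list and Ccl21a, Rspo3, Selp, Lhx6 and Fabp4 as its first genes (the central vein genes Wnt9b and Wnt2 were among its top 10), had 206 CPM in IDD+HID (61 cells), 1420 CPM in IDD+HTF (26 cells), against 838 CPM in IDD (21 cells). Cluster 14, unnamed too, with sinusoidal endothelial markers as its leading list, had 87.7 CPM in IDD+HID (23.9 to 225, 4 UMIs), 589 CPM in IDD+HTF (501 to 689), against 729 CPM in IDD (577 to 910), and there the IDD+HTF and IDD intervals overlapped. Vascular endothelial-like cells (cluster 12) held less, 82.7 CPM in IDD+HID (67.0 to 101), 404 CPM in IDD+HTF (347 to 468), against 153 CPM in IDD (92.1 to 239). In that class the 19 UMIs of IDD leave the IDD+HID and IDD intervals overlapping.

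Depth per cell differed between the libraries, so cells of like depth were also compared, a comparison added after the data were seen. Among sinusoidal endothelial-like cells with 1000 to 5000 UMIs, Cyp26b1 stood at 125 CPM in IDD+HID (96.1 to 159, 186 cells), 688 CPM in IDD+HTF (635 to 744, 267 cells), against 606 CPM in IDD (553 to 663, 266 cells). Among cells with 5000 to 10000 UMIs it stood at 147 CPM in IDD+HID (134 to 161, 409 cells), 961 CPM in IDD+HTF (925 to 999, 382 cells), against 747 CPM in IDD (667 to 833, 65 cells). At like depth the IDD+HID level was thus 0.206 and 0.197 of IDD, while the IDD+HTF level was 1.13 and 1.29 times IDD and no longer reached 1.5-fold. In cells with 10000 or more UMIs, of which IDD had 6, the levels were 163 CPM in IDD+HID (154 to 173, 553 cells), 1136 CPM in IDD+HTF (1087 to 1188, 132 cells), against 463 CPM in IDD (323 to 644). The share of cells with at least 1 Cyp26b1 UMI was 49.5% in IDD+HID, 83.6% in IDD+HTF and 65.6% in IDD. After each cell was thinned to 1000 UMIs it was 12.8% in IDD+HID (10.9 to 14.8), 49.0% in IDD+HTF (45.5 to 52.6), against 38.4% in IDD (33.2 to 43.9). B-like cells, which should lack the transcript, gave 0.651% in IDD+HID, 1.67% in IDD+HTF and 1.10% in IDD unthinned and at most 0.613% thinned. Both the share of positive cells and the CPM placed IDD+HID lowest.

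Outside the endothelium, most Cyp26b1 UMIs sat in cells that also carried endothelial markers. In the stellate-like class it read 71.8 CPM in IDD+HID, 480 CPM in IDD+HTF, against 88.2 CPM in IDD, a 5.45-fold higher level in IDD+HTF than in IDD (4.18 to 7.22). All 115 of those UMIs in IDD+HID, 676 of 677 in IDD+HTF and all 60 in IDD lay in cells where sinusoidal endothelial markers made up at least 1000 CPM of the cell's own UMIs. In Kupffer-like cells, the resident macrophages, the same held for 69 of 74 UMIs in IDD+HID, 182 of 190 in IDD+HTF and 1 of 2 in IDD. Over all named classes outside the endothelium together, 225 of 231 Cyp26b1 UMIs in IDD+HID, 927 of 945 in IDD+HTF and 66 of 70 in IDD were in marker-carrying cells. Such cells made up 7.90% of those classes in IDD+HID, 5.99% in IDD+HTF and 4.39% in IDD. The doublet caller marked under 0.5% of barcodes in IDD+HID and IDD+HTF and so has not worked there, and what brings endothelial markers into these cells was not tested.

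**Figure D2:**
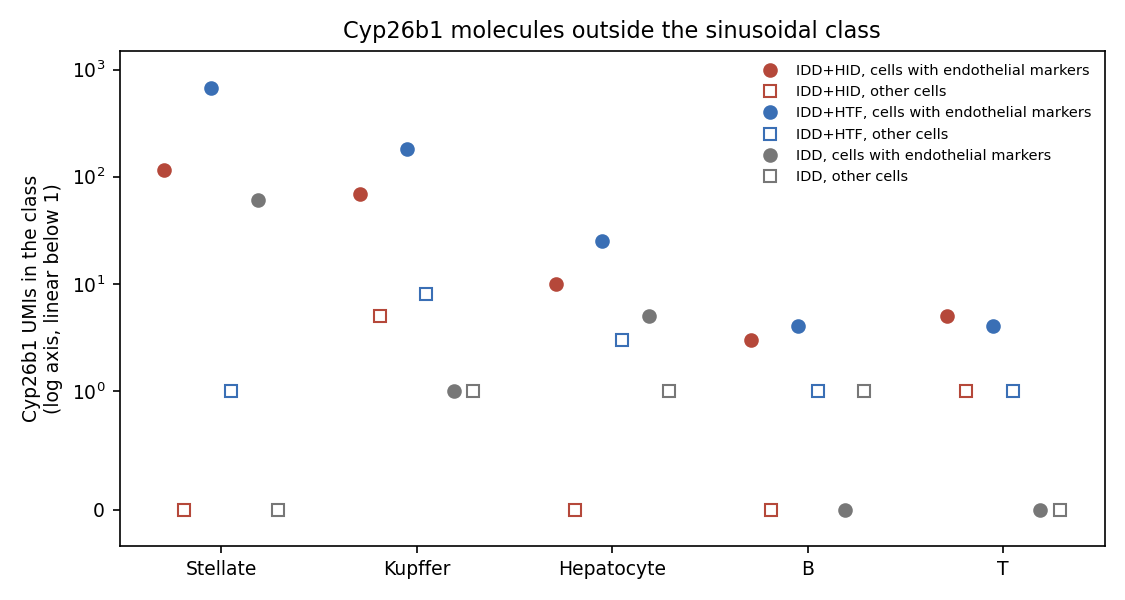
Number of Cyp26b1 UMIs (vertical axis, logarithmic above 1 and linear below) in the stellate-, Kupffer-, hepatocyte-, B- and T-like classes, coloured by library, with filled circles for cells carrying endothelial markers and open squares for the remaining cells. In stellate-like cells 115 of 115 UMIs in IDD+HID, 676 of 677 in IDD+HTF and 60 of 60 in IDD fall in the cells with markers.

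Cyp26a1 (ENSMUSG00000024987.6, chromosome 19, 37697798 to 37701536), the other CYP26 enzyme of the liver, was close to undetected. No class held more than 7 UMIs of it in any library, and the hepatocyte-like class had 0 UMIs in IDD+HID, 2 in IDD+HTF and 1 in IDD. The 0 UMIs of IDD+HID allow a level of up to 3 CPM there, by a limit of 3 counts. Rarb (ENSMUSG00000017491.9, chromosome 14, 16430839 to 16819156), a retinoic acid receptor, was seen mainly in stellate-like cells, at 14.98 CPM in IDD+HID (9.60 to 22.3), 10.6 CPM in IDD+HTF (5.96 to 17.6), against 23.5 CPM in IDD (13.4 to 38.2), and in sinusoidal endothelial-like cells, at 8.96 CPM in IDD+HID, 11.7 CPM in IDD+HTF, against 12.4 CPM in IDD. In stellate-like cells the ratio of IDD+HTF to IDD was 0.453 (0.209 to 0.978), from 15 UMIs in IDD+HTF and 16 in IDD, fewer than the 50 needed for a gene to be called measured. The other ratios of Rarb between libraries in these classes had intervals that included 1.

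Lrat (ENSMUSG00000028003.6, chromosome 3, 82892579 to 82903973 on the minus strand), which makes the stored retinyl esters, was highest in stellate-like cells in every library. It stood there at 662 CPM in IDD+HID (623 to 703), 945 CPM in IDD+HTF (895 to 997), against 1750 CPM in IDD (1652 to 1853), and the intervals did not overlap. IDD was the high library. The level was 2.64-fold lower in IDD+HID than in IDD (2.43 to 2.87) and 1.85-fold lower in IDD+HTF than in IDD (1.71 to 2.00). In sinusoidal endothelial-like cells Lrat was at 9.85 CPM in IDD+HID, 15.6 CPM in IDD+HTF, against 13.98 CPM in IDD, and in hepatocyte-like cells it had 0 UMIs in IDD+HID, 3 in IDD+HTF and 0 in IDD.

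Of the 5 members measured in stellate-like cells, 0 were higher and 2 lower in IDD+HID than in IDD, against 31.2% and 16.1% of all genes, and 2 were higher and 1 lower in IDD+HTF than in IDD, against 24.6% and 11.0%. In IDD+HID over IDD+HTF 1, Rbp4, was higher and 2, Cyp26b1 and Dhrs3, were lower, against 8.32% and 8.65%. For Rbp4 the level computed from free RNA in droplets without cells is given below. The stellate-like class held endothelial and macrophage RNA, and more of it in IDD+HID and IDD+HTF than in IDD. The 8 sinusoidal endothelial markers summed to 9389 CPM in IDD+HID, 8304 CPM in IDD+HTF, against 2645 CPM in IDD, and the 8 Kupffer markers to 800 CPM in IDD+HID, 1040 CPM in IDD+HTF, against 29.4 CPM in IDD, with Timd4, Marco, Folr2 and Adgre1 at 0 in IDD. The comparison was therefore repeated, after the data were seen, in the 67 IDD+HID, 83 IDD+HTF and 111 IDD cells that had under 1000 CPM of each marker set. In these low-marker cells Cyp26b1 had 0 UMIs in IDD+HID, 1 in IDD+HTF and 0 in IDD.

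Lrat in the low-marker stellate-like cells stood at 1149 CPM in IDD+HID (1052 to 1252), 1665 CPM in IDD+HTF (1548 to 1788), against 2132 CPM in IDD (2005 to 2266). It was 1.86-fold lower in IDD+HID than in IDD (1.67 to 2.07) and 1.28-fold lower in IDD+HTF than in IDD (1.17 to 1.41), the second difference being under 1.5-fold. Its order over the libraries was that of the whole class. In the remaining cells, which carried such markers, Lrat was at 472 CPM in IDD+HID (433 to 514), 605 CPM in IDD+HTF (557 to 657), against 771 CPM in IDD (651 to 906), again in that order. Other stellate markers also differed. Of the 12 in the whole class, 5 were at least 1.5-fold lower and 2 higher in IDD+HID than in IDD. Their log2 ratios lay between -1.49 (Colec10) and 1.15 (Angptl6), with a median of -0.29. Lrat at -1.40 lay inside that range, with only Colec10 below it. Per 1000 UMIs of these 12 markers, the low-marker cells had 27.4 UMIs of Lrat in IDD+HID, 41.6 in IDD+HTF and 83.5 in IDD. Dcn and Ecm1, the markers with the most UMIs, were themselves higher in IDD+HID than in IDD in the whole class (log2 ratios 0.39 and 0.40). The values per marker UMI therefore also carry the difference in these markers. After thinning to 1000 UMIs, 44.7% of stellate-like cells in IDD+HID (35.5 to 54.2), 49.8% of them in IDD+HTF (41.4 to 58.2) and 70.8% of them in IDD (62.4 to 78.3) had an Lrat UMI.

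**Figure D3:**
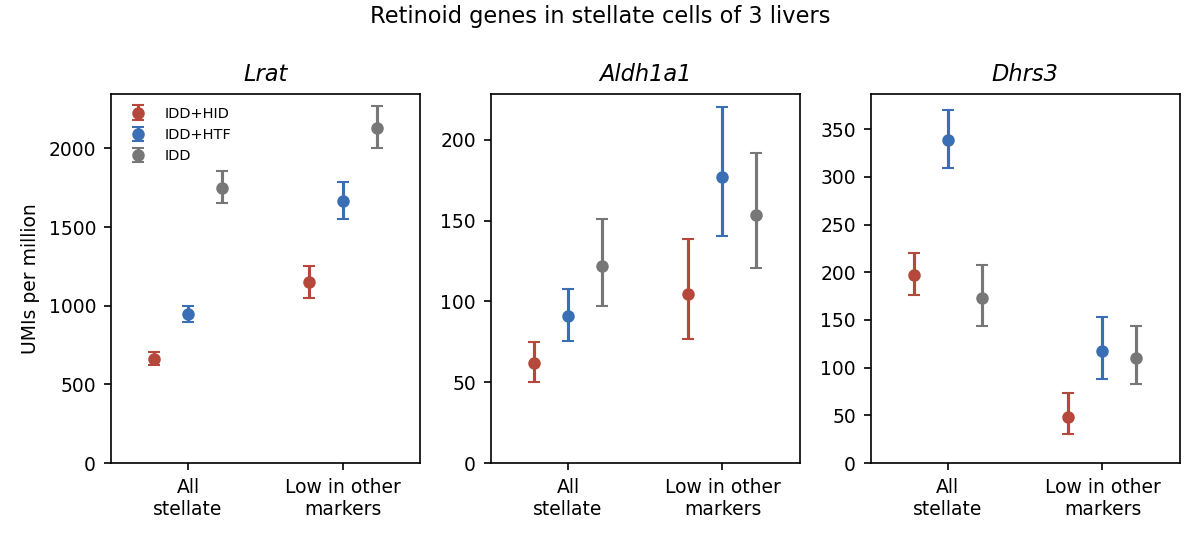
Levels of Lrat, Aldh1a1 and Dhrs3 (1 panel each, in CPM on linear axes from 0, with 95% counting intervals) in all stellate-like cells and in those low in endothelial and Kupffer markers, coloured by library. Lrat is lowest in IDD+HID and highest in IDD in both sets of cells, at 1149 CPM in IDD+HID, 1665 CPM in IDD+HTF, against 2132 CPM in IDD among the low-marker cells.

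Dhrs3, Aldh1a1 and Rbp4 were also measured in stellate-like cells. Dhrs3 (ENSMUSG00000066026.14, chromosome 4, 144892827 to 144928209), which reduces retinal back to retinol, stood in the whole class at 197 CPM in IDD+HID, 338.5 CPM in IDD+HTF, against 173 CPM in IDD. Its 1.95-fold higher level in IDD+HTF (1.59 to 2.41) was not seen in the low-marker cells, which had 117 CPM in IDD+HTF, against 110.3 CPM in IDD. In IDD+HID the low-marker cells had 48.9 CPM of Dhrs3, 2.26-fold lower than IDD (1.35 to 3.89), from 22 UMIs in IDD+HID and 54 in IDD. In cells picked by stellate marker UMIs without clustering (marker-gated cells) Dhrs3 stood the other way, at 128.7 CPM in IDD+HID (105.3 to 156) and 127.5 CPM in IDD+HTF (103 to 156), against 97.8 CPM in IDD (73.1 to 128), so its direction depended on how the cells were chosen. Rarb had 8 UMIs in the low-marker cells of IDD+HID, 3 in those of IDD+HTF and 15 in those of IDD, a ratio of 0.217 between IDD+HTF and IDD (0.0402 to 0.765). Rbp4 stood at 43.7 CPM in IDD+HID (34.1 to 55.2), 29.1 CPM in IDD+HTF (20.9 to 39.5), against 33.8 CPM in IDD (21.4 to 50.7). Free RNA would bring 33.6 CPM in IDD+HID, 22.0 in IDD+HTF and 26.7 in IDD. That holds if all Alb UMIs in these cells came from it, and its part in the Rbp4 ratio was not tested. In the low-marker cells Rbp4 had 30 UMIs in IDD+HID, 12 in IDD+HTF and 16 in IDD, too few to be called measured. Aldh1a1 (ENSMUSG00000053279.8, chromosome 19, 20492715 to 20643465), which oxidises retinal to retinoic acid, was 1.97-fold lower in IDD+HID than in IDD in the whole class (1.46 to 2.67), at 61.8 CPM in IDD+HID and 122 CPM in IDD, and stood at 90.8 CPM in IDD+HTF. In the low-marker cells it read 104.5 CPM in IDD+HID, 177 CPM in IDD+HTF, against 153 CPM in IDD, a difference of 1.47-fold between IDD+HID and IDD (1.005 to 2.16). Of the 3 members measured in the low-marker cells, Lrat and Dhrs3 were at least 1.5-fold lower in IDD+HID than in IDD and none was higher, against 15.1% lower and 23.5% higher of all genes. None of the 3 was 1.5-fold apart between IDD+HTF and IDD, where 16.1% of all genes were higher and 11.6% lower. In IDD+HID over IDD+HTF, Dhrs3 and Aldh1a1 were lower by 2.40-fold (1.43 to 4.14) and 1.69-fold (1.17 to 2.48) and none was higher, against 10.6% of all genes lower and 15.3% higher.

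Other genes of the retinoid lists differed in stellate-like cells in both directions. Over all 84 listed genes, members included, 35 were measured in each comparison, of which 10 were higher and 7 lower in IDD+HID than in IDD, where 31.2% of all genes were higher and 16.1% lower, and 8 were higher and 5 lower in IDD+HTF than in IDD, where 24.6% of all genes were higher and 11.0% lower. With protein-coding UMIs as the denominator these splits were 8 and 11 for IDD+HID over IDD, beside 21.9% and 24.4% of all genes, and 6 and 6 for IDD+HTF over IDD, beside 17.7% and 17.4%. In the low-marker cells 5 of 25 were higher and 5 lower in IDD+HID than in IDD, beside 23.5% and 15.1% of all genes there. In IDD+HTF over IDD 2 of 24 were higher and 6 lower, beside 16.1% and 11.6%.

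Rarres2, which encodes the secreted protein chemerin and was named for its response to retinoids, was 3.69-fold higher in IDD+HID than in IDD in the low-marker cells (2.94 to 4.68), at 731 CPM in IDD+HID and 198 CPM in IDD, and stood at 391 CPM in IDD+HTF. Gata6, a transcription factor, was lower in both, at 64.5 CPM in IDD+HID and 61.9 CPM in IDD+HTF, against 188 CPM in IDD. Aldh1a3, another retinal dehydrogenase, was 3.48-fold lower in IDD+HTF than in IDD in the whole class (2.00 to 6.20) and 1.96-fold lower in the low-marker cells, from 16 UMIs in IDD+HTF and 34 in IDD. Fabp5 and Cd36, a fatty acid carrier and a fatty acid receptor that endothelial cells also make, were 3.27-fold and 2.88-fold higher in IDD+HID than in IDD in the whole class. In the low-marker cells Fabp5 had 5 UMIs in IDD+HID, 31 in IDD+HTF and 6 in IDD, and Cd36 had 1 UMI in IDD+HID and 3 in IDD+HTF. Adh5, Rxrb and Pnpla2 had too few UMIs in the low-marker cells, at most 22 in any library, to be measured there.

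In sinusoidal endothelial-like cells Dhrs3 was the other member with a high count, at 409 CPM in IDD+HID (397 to 421), 535 CPM in IDD+HTF (515 to 555), against 462 CPM in IDD (426 to 501). Its IDD+HID level was 0.885 of IDD (0.812 to 0.965) and its IDD+HTF level 1.16 times IDD (1.06 to 1.27), both inside 1.5-fold. It lay in the same order over the 3 libraries as Cyp26b1, with far smaller differences. With each cell assigned to the side on which it had more marker UMIs, a rule added after the data were seen because the planned one left at most 8 pericentral cells per library, Dhrs3 was 1.42 times as high on the pericentral as on the periportal side in IDD+HID (1.33 to 1.51), 1.51 times in IDD+HTF (1.39 to 1.65) and 1.40 times in IDD (1.16 to 1.68). Cyp26b1 was 1.62 times as high on the pericentral side in IDD+HID (1.47 to 1.79), 1.32 times in IDD+HTF (1.24 to 1.41) and 1.14 times in IDD (0.965 to 1.34), where the interval includes no difference. Under the planned rule, on cells with markers of one side only, the Cyp26b1 ratio was 1.31 in IDD+HID (0.337 to 3.68, 4 pericentral UMIs), 1.35 in IDD+HTF (0.698 to 2.39, 13 UMIs) and 2.03 in IDD (1.11 to 3.51, 16 UMIs), so which library had the largest ratio depended on the rule. The Dhrs3 ratio under that rule was 1.88 in IDD+HID (0.766 to 4.02), 0.533 in IDD+HTF (0.142 to 1.41), against 1.95 in IDD (0.922 to 3.77), every interval including 1. These sides are ranges of a marker score and not cell types.

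Of the wider retinoid lists in sinusoidal endothelial-like cells, 7 of 50 measured genes were higher and 6 lower in IDD+HID than in IDD, where 14.0% of all genes were higher and 19.8% lower, and 5 of 46 were higher and 5 lower in IDD+HTF than in IDD, where 9.73% of all genes were higher and 10.0% lower. With protein-coding UMIs alone as the denominator the split for IDD+HID over IDD was 6 higher and 16 lower, beside 8.06% and 27.1% of all genes, and that for IDD+HTF over IDD was 2 higher and 5 lower, beside 6.76% and 14.2%. By list, IDD+HID over IDD had 2 higher and 2 lower of 8 uptake and binding genes, 4 and 0 of 10 ester storage genes, 1 and 1 of 8 retinol and retinal redox genes, 0 and 1 of 3 genes of retinoic acid making and breakdown, and 0 and 1 of 6 other known targets. None of the 9 measured receptors and co-regulators was 1.5-fold apart in either comparison. Rdh14, a retinol dehydrogenase of the same family as Rdh11, was higher in both, at 18.5 CPM in IDD+HID and 18.2 CPM in IDD+HTF, against 9.32 CPM in IDD, where it had 12 UMIs. Rdh1, another retinol dehydrogenase, stood at 7.10 CPM in IDD+HID and 13.98 CPM in IDD. Aox1, an aldehyde oxidase that can oxidise retinal, stood at 7.26 CPM in IDD+HTF, against 15.5 CPM in IDD. Pnpla2, a triglyceride lipase, was at 66.6 CPM in IDD+HTF, against 42.7 CPM in IDD, and Fabp5 at 614.5 CPM in IDD+HTF, against 395 CPM in IDD. The carboxylesterases Ces1c, Ces1d and Ces1f, hepatocyte genes, were 2.70-fold, 3.62-fold and 4.57-fold higher in IDD+HID than in IDD. Ces1c stood at 27.2 CPM in IDD+HID and 10.1 CPM in IDD, under the 35.6 CPM in IDD+HID and 16.0 CPM in IDD that free RNA would bring if all Alb UMIs in these cells came from it. Ces1d, at 8.43 CPM in IDD+HID and 2.33 CPM in IDD, was under a computed 10.75 and 5.53 CPM. Ces1f, at 7.10 CPM in IDD+HID and 1.55 CPM in IDD, was under 8.01 and 4.02 CPM. As 1 UMI is 0.777 CPM in IDD of this class, the Ces1d and Ces1f ratios rest on very few UMIs.

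Rbp4 (ENSMUSG00000024990.13, chromosome 19, 38116629 to 38125281 on the minus strand), the retinol carrier of the blood, was a hepatocyte transcript. In hepatocyte-like cells it stood at 5035 CPM in IDD+HID (4897 to 5176), 2176 CPM in IDD+HTF (2122 to 2231), against 2948 CPM in IDD (2819 to 3081). The level was 1.71-fold higher in IDD+HID than in IDD (1.62 to 1.80) and 0.738 of IDD in IDD+HTF (0.701 to 0.777). The median of all genes in this class was higher by 0.97 on the log2 scale in IDD+HID than in IDD, more than the 0.77 of Rbp4, and with scaling factors that remove this shift the Rbp4 ratio turned to 0.891 (TMM) and 0.913 (median of ratios). Cluster 7 held 67.4% of the hepatocyte-like cells in IDD+HID, 19.1% in IDD+HTF and 23.6% in IDD, the rest lying in clusters 2, 6 and 23. Within cluster 7 Rbp4 stood at 5776 CPM in IDD+HID, 7135 CPM in IDD+HTF, against 7609 CPM in IDD, 1.32-fold lower in IDD+HID than in IDD (1.24 to 1.40). The direction for Rbp4 between IDD+HID and IDD therefore depended on the scaling and on which hepatocyte-like cells were compared.

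Rbp4 was lower in pericentral than in periportal hepatocyte-like cells in every library, where cells had markers of one side only. It stood at 2082 CPM in 22 pericentral and 6314 CPM in 101 periportal cells of IDD+HID, at 645 CPM in 98 and 2740 CPM in 524 cells of IDD+HTF, and at 484 CPM in 14 and 3606 CPM in 152 cells of IDD. The pericentral level was 3.03-fold lower in IDD+HID (2.50 to 3.71), 4.25-fold lower in IDD+HTF (3.57 to 5.09) and 7.45-fold lower in IDD (4.50 to 13.3). Assigning cells by the majority of marker UMIs gave 1.75-fold in IDD+HID, 3.03-fold in IDD+HTF and 3.21-fold in IDD. Outside hepatocyte-like cells Rbp4 was low. It stood at 57.1 CPM in sinusoidal endothelial-like cells of IDD+HID, 69.8 CPM in IDD+HTF, against 64.5 CPM in IDD, beside 55.3 CPM (IDD+HID), 43.5 CPM (IDD+HTF) and 42.1 CPM (IDD) computed from free RNA by the Alb count. Kupffer-like cells had 31.0 CPM in IDD+HID beside a computed 32.4 CPM, 22.7 CPM in IDD+HTF beside 24.0 CPM and 12.03 CPM in IDD beside 9.52 CPM.

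**Figure D4:**
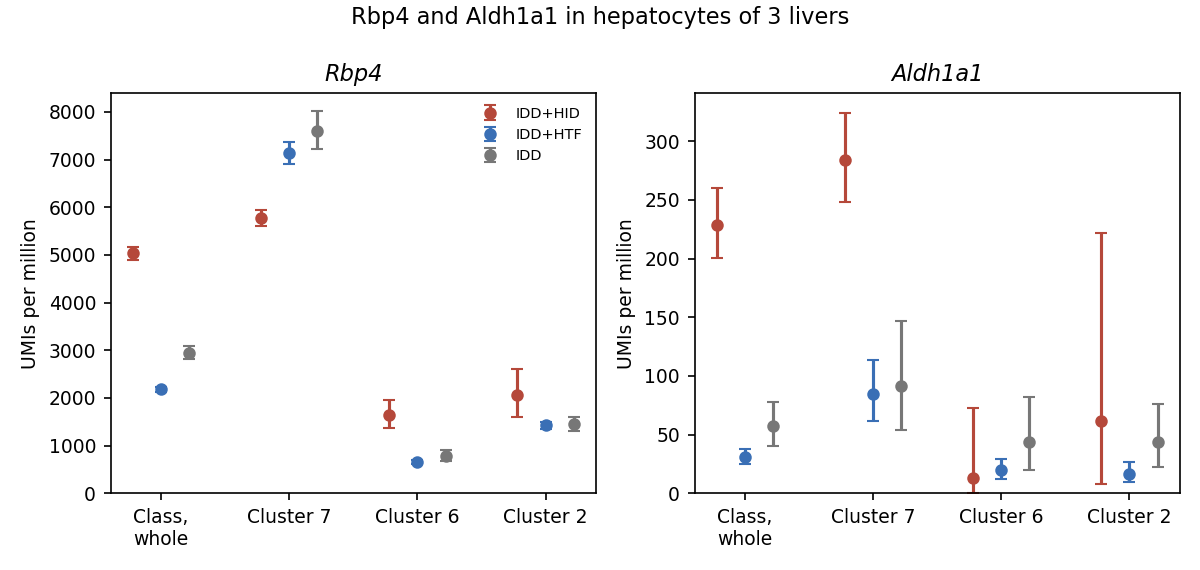
Levels of Rbp4 and Aldh1a1 (1 panel each, in CPM on linear axes from 0, with 95% counting intervals) in all hepatocyte-like cells and in clusters 7, 6 and 2, coloured by library. Rbp4 is highest in IDD+HID over the whole class, at 5035 CPM. Within cluster 7 it is lowest in IDD+HID, at 5776 CPM against 7609 CPM in IDD. Aldh1a1 is highest in IDD+HID in the whole class and in cluster 7.

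Aldh1a1 in hepatocyte-like cells stood at 229 CPM in IDD+HID (200.3 to 261), 30.7 CPM in IDD+HTF (24.6 to 37.9), against 56.9 CPM in IDD (40.3 to 78.1). It was 4.03-fold higher in IDD+HID than in IDD (2.85 to 5.83) and 1.85-fold lower in IDD+HTF than in IDD (1.23 to 2.74). The ratio of IDD+HID to IDD was 2.10 with TMM factors and 2.15 with size factors. In marker-gated cells it was 1.24, at 48.4 CPM in IDD+HID and 39.1 CPM in IDD, so that the 1.5-fold difference was not seen there. That gate took any cell with at least 2 hepatocyte marker UMIs and none of stellate or sinusoidal endothelial markers. It held 699 cells in IDD+HID, against 261 in the class, and Rbp4 stood there at 1066 CPM, against 5035 CPM in the class. Its ratios are therefore not those of hepatocyte-like cells alone. Within cluster 7 Aldh1a1 stood at 284.5 CPM in IDD+HID, 84.9 CPM in IDD+HTF, against 91.8 CPM in IDD, 3.099-fold higher in IDD+HID than in IDD (1.89 to 5.42). The difference between IDD+HTF and IDD was not present there, at a ratio of 0.925 (0.519 to 1.72). The median of all genes in cluster 7 was higher by 0.40 on the log2 scale in IDD+HID than in IDD. Cluster 7 held 221 of the 229 Aldh1a1 UMIs of the whole class in IDD+HID, 45 of 86 in IDD+HTF and 17 of 38 in IDD. Few UMIs of the gene thus lay outside cluster 7 in IDD+HID. Dhrs3 was at 118 CPM in IDD+HID, 87.5 CPM in IDD+HTF, against 100.3 CPM in IDD, and neither the IDD+HID nor the IDD+HTF interval was clear of that of IDD. Its ratio of IDD+HID to IDD, 1.18, turned to 0.614 with TMM, 0.628 with size factors and 0.859 with protein-coding UMIs as the denominator, and was 0.469 in marker-gated cells, at 39.5 CPM in IDD+HID (33.2 to 46.7) and 84.2 CPM in IDD (67.1 to 104). Of the 3 members measured in this class, 2 were higher and 0 lower in IDD+HID than in IDD, against 64.8% and 11.6% of all genes, and 0 were higher and 1 lower in IDD+HTF than in IDD, against 18.4% and 14.3%. In IDD+HID over IDD+HTF 2, Rbp4 and Aldh1a1, were higher and 0 lower, against 63.2% and 14.5%.

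Among the wider lists in hepatocyte-like cells, 14 of 32 measured genes were higher and 4 lower in IDD+HID than in IDD, where 64.8% of all genes were higher and 11.6% lower. With TMM factors the split was 7 higher and 16 lower, beside 24.0% and 29.2% of all genes, with size factors 7 and 15, beside 25.2% and 28.4%, and with protein-coding UMIs as the denominator 11 and 9, beside 47.4% and 18.7%. In IDD+HTF over IDD 5 of 34 were higher and 9 lower, beside 18.4% and 14.3% of all genes. Rdh11, a retinal reductase that is also regulated with sterol synthesis, was lower in both, at 7.999 CPM in IDD+HID and 25.4 CPM in IDD+HTF, against 83.8 CPM in IDD. These Rdh11 values are for the whole class, whose cluster makeup differed between the libraries, and no cluster 7 value is given for it. Adh4, an alcohol dehydrogenase that oxidises retinol, stood at 127 CPM in IDD+HID and 23.9 CPM in IDD in the whole class, and at 160 CPM in IDD+HID (124 UMIs) and 54.0 CPM in IDD (10 UMIs) in cluster 7. Dhrs4, a retinal reductase, was at 317 CPM in IDD+HID and 62.9 CPM in IDD, and Mgll, monoglyceride lipase, at 264 CPM in IDD+HID and 52.4 CPM in IDD. In cluster 7 their ratios of IDD+HID to IDD were 2.08 (1.47 to 3.02) and 4.75 (2.67 to 9.32). Ncor1, a co-repressor of nuclear receptors, had 93 UMIs in IDD+HID and 12 in IDD, raw counts not scaled to the class total, which was larger in IDD+HID.

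The IDD+HTF library differed from IDD in other hepatocyte genes. Adh1, the main retinol-oxidising alcohol dehydrogenase of the liver, stood at 145 CPM in IDD+HTF, against 293 CPM in IDD, a 2.02-fold lower level (1.69 to 2.40), while within cluster 7 its ratio was 0.894 (0.690 to 1.17). Aldh1a7, a close relative of Aldh1a1 whose reads may be shared with it, was 2.79-fold lower in IDD+HTF (1.55 to 4.94), and Aldh1a1 counts carry the same uncertainty. Scarb1, a lipoprotein receptor, was 2.06-fold higher (1.32 to 3.37), and Rarres1, a retinoid-responsive gene, 2.64-fold higher (1.46 to 5.25). Lipe, hormone-sensitive lipase, had 49 UMIs in IDD+HTF and 4 in IDD. These are raw counts from 1032 cells in IDD+HTF and 246 in IDD, so they overstate the difference in level.

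Rdh10 (ENSMUSG00000025921.7, chromosome 1, 16105774 to 16133734), the main retinol dehydrogenase of the embryo, was low in every class. It had 14.3 CPM in Kupffer-like cells of IDD+HID, 13.6 CPM in IDD+HTF, against 14.04 CPM in IDD. Among the 6 classes with at least 50 cells in every library, its highest CPM was in stellate-like cells of IDD. Those cells had 9.99 CPM of Rdh10 in IDD+HID (16 UMIs), 10.6 CPM in IDD+HTF (15 UMIs), against 16.2 CPM in IDD (11 UMIs). In sinusoidal endothelial-like cells it stood at 9.94 CPM in IDD+HID, 8.93 CPM in IDD+HTF, against 10.9 CPM in IDD, a ratio of 0.914 between IDD+HID and IDD (0.523 to 1.73). The intervals of the 3 libraries overlapped in each of these classes.

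The members thus fell into classes by where they were highest in all 3 libraries. Among the 6 classes with at least 50 cells in every library, Cyp26b1 was highest in sinusoidal endothelial-like cells, Lrat in stellate-like cells and Rbp4 in hepatocyte-like cells, each above the next class with intervals that did not overlap. Dhrs3 was highest in sinusoidal endothelial-like cells in every library. Aldh1a1 was highest in hepatocyte-like cells in IDD+HID and in stellate-like cells in IDD+HTF and IDD. In small classes left out of that order, Aldh1a1 also stood at 219 CPM in 24 mesothelial-like cells of IDD+HID and at 167 CPM in 14 cholangiocyte-like cells of that library, and Dhrs3 at 328 CPM in those cholangiocyte-like cells.

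**Figure D5:**
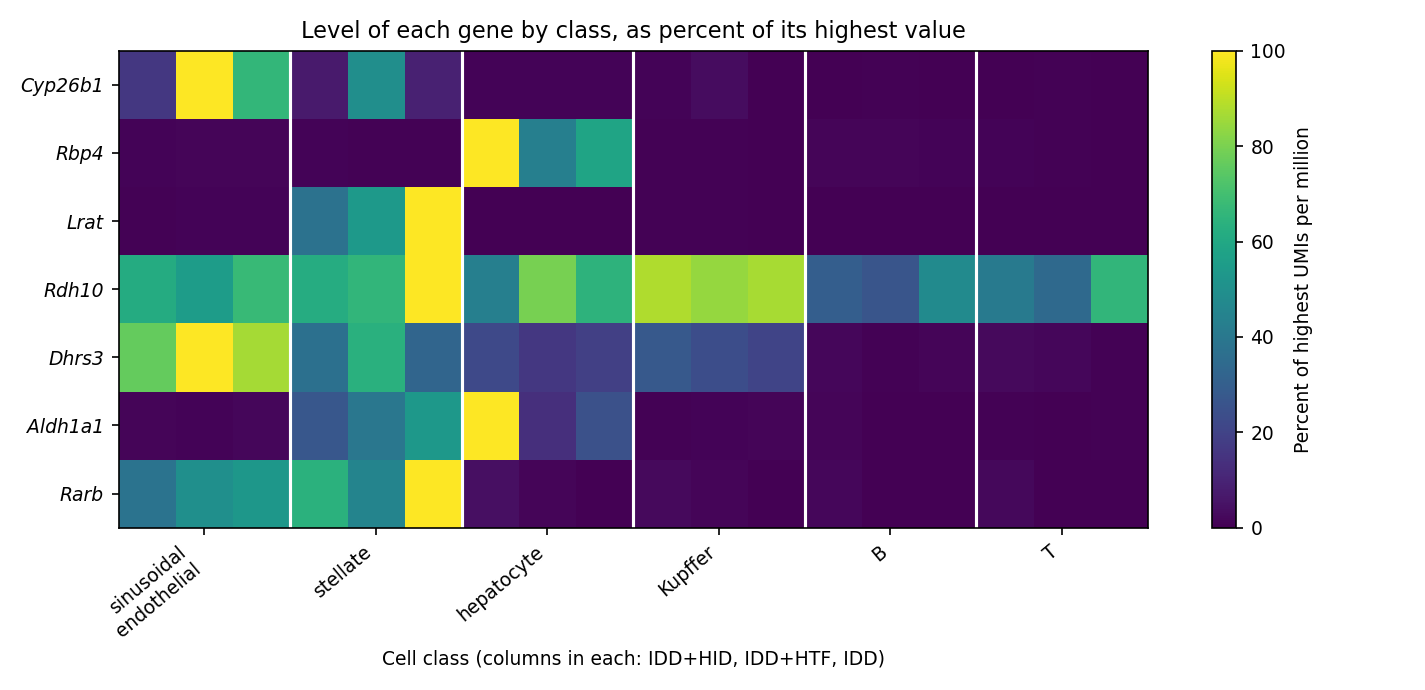
Level of 7 members in 6 cell classes of each library, as a percent of each gene's highest CPM over these classes and libraries; Cyp26a1 is left out because no class held more than 7 UMIs. Cyp26b1 reaches its highest level in sinusoidal endothelial-like cells of IDD+HTF, Lrat in stellate-like cells of IDD and Rbp4 in hepatocyte-like cells of IDD+HID.

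Likeness between genes was read over the 18 points of 6 classes in 3 libraries by Pearson's r of log2(CPM + 20) over 12784 genes, as a description, since points of a library share its mouse and depth. The genes most like Cyp26b1 were Gm3364 (r = 0.982), E230020A03Rik (r = 0.977) and Cntfr (r = 0.974). Those most like Lrat were Gucy1b1, Des and Lhfp (r = 0.998, 0.998 and 0.997), those most like Rbp4 were Apoa2 and Apoc3 (r = 0.995 and 0.994), and those most like Dhrs3 were Ctsl, Selenop and Palld (r = 0.98, 0.979 and 0.974). Gstt1 was most like Aldh1a1 (r = 0.988) and Dlg5 most like Rarb (r = 0.985), while Rdh10 had no gene above r = 0.86, the value of Tsku.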

How the data were processed

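Livers of 3 mice, 1 per group, were measured. The authors deposited raw UMI counts for each gene in all barcodes, empty droplets included. GRCm38 and Seurat 4 are listed in the submitters' processing notes; which aligner was used is not given in the sources used here, nor which counter. Among 55421 identifiers, 54673 matched GENCODE M21 with their version.

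Barcodes were kept as cells from 1000 UMIs and 300 genes upward, if mitochondrial UMIs stayed within 20%. Scrublet in scanpy 1.11.5 (6% doublets expected) removed 7 barcodes in IDD+HID, 5 in IDD+HTF and 23 in IDD. Leiden clustering (resolution 1, igraph 0.11.9, 30 components, 15 neighbours) used 2000 variable genes without the retinoid lists. Clusters were named from marker lists.

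UMIs were summed per class and library, with exact Poisson intervals for CPM, exact conditional binomial intervals for ratios (scipy 1.17.1), Clopper-Pearson intervals for shares (approximate after thinning to 1000 UMIs, which uses expected values), and a floor of 3 counts. Free RNA came from droplets with 100 or fewer UMIs. Scaling alternatives used edgeR 4.0.16 and DESeq2 1.42.0. Only the 1.5-fold call and the ratio intervals were tested on simulated data. Those were Poisson counts, the error model that the intervals assume, without spread between cells or mice. Members, lists, markers and alternatives were chosen with earlier results of these data known. Besides the 8 members, the text names in each class and comparison up to 6 of the 76 other listed genes, the furthest apart of those measured, past 1.5-fold and with an interval that leaves out 1; some genes that meet this are not reported here. No proteins were analysed here.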

Additional observations from a re-analysis of the deposited data

Results flagged for a closer look

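Aldh1a1, the retinal dehydrogenase, differed between IDD+HID and IDD in opposite directions in 2 cell classes. On the log2 scale IDD+HID minus IDD came to 2.01 in hepatocyte-like cells and to -0.98 in stellate-like cells. With 1 mouse per group the difference between these ratios was not tested. In the stellate-like cells low in endothelial and Kupffer markers the log2 ratio was -0.55. In the whole hepatocyte-like class the median of all genes was 0.97, and the Aldh1a1 value was 1.07 with TMM factors and 1.10 with size factors. In marker-gated cells, which were not hepatocyte-like cells alone, it was 0.31. In hepatocyte cluster 7 it was 1.63, beside a median of 0.40 for all genes there. That cluster held 221 of the 229 Aldh1a1 UMIs of the whole class in IDD+HID and 17 of 38 in IDD. The summed endothelial markers, the makeup of the hepatocyte-like class and depth differed between the libraries as given in the report, and their part in this result was not tested.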

How the results depend on the processing

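With 1 mouse per group, no value here has a replicate check, and diet, injection, mouse, library and depth cannot be told apart. No paired analysis was possible because each group has 1 sample. Depth limits Cyp26a1, Rarb and Rdh10 most. The low-marker, depth-range, majority and unnamed-cluster alternatives were chosen after the data were seen. Marker-gated cells are cells picked by marker UMIs without clustering. They can belong to other classes, as Kupffer, B, T and other markers were not looked at. The hepatocyte gate took 699 cells in IDD+HID, against 261 in the class. The sinusoidal endothelial gate took 575 cells in IDD+HID, against 1148 in the class. Its cells had Rbp4 at 188.5 CPM and Dhrs3 at 168 CPM there, against 57.1 and 409 CPM in the class. Where values below differ from the report, the cause was not tested.

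Cyp26b1 in sinusoidal endothelial-like cells stayed lower in IDD+HID than in IDD and IDD+HTF in all 16 alternatives each. Cyp26b1 was chosen for this difference, and the alternatives rescale or regroup counts of the same 3 libraries. The tally therefore shows only how the size depends on processing and is no test of the difference. The ratio of IDD+HID to IDD was 0.213 with protein-coding UMIs as denominator, 0.135 in marker-gated cells, 0.295 in cluster 11, and 0.206 and 0.197 in cells of 1000 to 5000 and 5000 to 10000 UMIs. The ratio of IDD+HTF to IDD was 1.39 with the protein-coding denominator, 1.70 in cluster 11, and 1.13 and 1.29 in the 2 depth ranges. The ratio of IDD+HID to IDD+HTF was 0.172 without the top 10% of cells by UMIs, 0.0884 in marker-gated cells, 0.144 in cluster 1, 0.174 in cluster 11, and 0.181 and 0.153 in the 2 depth ranges.

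The Lrat ratio in stellate-like cells of IDD+HID to IDD was 0.342 with size factors, 0.320 with the protein-coding denominator, 0.417 at resolution 2, 0.416 without the top 10% of cells, 0.454 with cells weighted equally, 0.231 in marker-gated and 0.539 in low-marker cells. That of IDD+HTF to IDD was 0.495, 0.480, 0.617, 0.604, 0.605, 0.457 and 0.781 in the same order. That of IDD+HID to IDD+HTF was 0.506 in marker-gated cells. Dhrs3 in stellate-like cells turned from lower to 1.01 for IDD+HID over IDD+HTF in marker-gated cells.

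In hepatocyte-like cells the Aldh1a1 ratio of IDD+HID to IDD was 2.10 with TMM, 2.15 with size factors and 1.24 in marker-gated cells. The Rbp4 ratio of IDD+HID to IDD turned to 0.891 with TMM, 0.913 with size factors, 0.604 in marker-gated cells and 0.759 in cluster 7, and that of IDD+HID to IDD+HTF to 0.798 in marker-gated cells and 0.810 in cluster 7.

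Levels in marker-gated cells of IDD+HID, IDD+HTF and IDD were 48.4, 21.1 and 39.1 CPM for Aldh1a1 (hepatocyte), 42.6, 482 and 317 CPM for Cyp26b1 (sinusoidal endothelial), and 327, 646 and 1413 CPM for Lrat (stellate). By majority of marker UMIs, the pericentral over periportal ratio was 1.51 for Dhrs3 in IDD+HTF, and 0.572, 0.330 and 0.312 for Rbp4 in IDD+HID, IDD+HTF and IDD.

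Counts of listed genes at least 1.5-fold apart, 13 for IDD+HID over IDD in sinusoidal endothelial-like cells, were 22 with the protein-coding denominator, without the top 10% of cells and with cells weighted equally, 34 with a minimum of 1 UMI and 5 at 2-fold. The 10 for IDD+HTF over IDD were 17 with cells weighted equally, 4 at 100 UMIs, 31 at 1 UMI and 3 at 2-fold. In stellate-like cells the 17 for IDD+HID over IDD were 10 in low-marker cells, 28 at 20 UMIs, 43 at 1 UMI and 7 at 2-fold, and the 13 for IDD+HTF over IDD were 8, 22, 37 and 7. In hepatocyte-like cells the 18 for IDD+HID over IDD were 46 at 1 UMI, and the 14 for IDD+HTF over IDD were 23 at 20 UMIs, 40 at 1 UMI and 6 at 2-fold. The splits into higher and lower by scaling and in low-marker cells stand in the report beside the shares over all genes. For the other settings, namely 1, 20 or 100 UMIs, 2-fold, equal weights and the top 10% left out, no such share was computed. Genes with few UMIs can pass 1.5-fold by counting error alone, so nothing is read from those counts.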
